A study of Ceratopteris richardii with 15 samples.

Results

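The leaf tip of the fern Ceratopteris richardii was compared with the leaf behind it. The comparison used 6 of the 15 RNA libraries of the series, 3 from leaf tip and 3 from leaf without its tip. All came from wild type RNWT1 sporophytes, the spore-producing generation, grown from spores on 1/2 MS medium and taken at 50 days, with no further treatment. The other 9 libraries, from shoot tip, root tip and root without its tip, were used only to show where the genes of this comparison were expressed elsewhere. No label says whether a library held 1 plant or several, or that replicates came from separate plants, so p-values measure only the spread between these libraries, which may be technical. The 3 leaf columns could not be tied to single leaf samples and are called leaf replicates a, b and c.

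A fern leaf grows from a cell group at its own tip, where an apical cell divides and new blade is laid down while the tip is still coiled. Tissue farther back is older, and in a green leaf it carries out photosynthesis. In a growing leaf, a comparison of the tip with the leaf behind it therefore sets younger tissue against older tissue of the same organ. No label gives the stage of the leaves, so whether these tips were still coiled or growing is unknown. The tissues were cut by hand and no cell type was isolated, so a transcript that is less abundant because fewer cells make it cannot be told apart from one that is less abundant in each cell.

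Values were deposited as TPM, a transcript level scaled by gene length and to a total of 1000000 in every library. TPM is a share of the library, so a few very abundant transcripts lower the TPM of all others, and depth is unknown. The table lists 88641 genes under identifiers of the form that the Trinity assembler writes, without names. None of them matched the 36816 genes of the reference table (0 identifiers), so no function, position or sequence is given and the tissue labels could not be checked with marker genes. A gene was tested when it had at least 1 TPM in 3 or more of the 6 libraries, which 32314 genes (36.5%) did. The tested genes held 98.47% to 98.5% of the summed TPM of the leaf tip libraries and 99.17% to 99.26% of that of the leaf libraries.

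The threshold of 1 TPM lay among genes of very low level. Genes at 1 TPM in exactly 3 libraries, which were tested, numbered 6568 and had a median of 1.318 TPM over the 6 libraries. Genes at 1 TPM in exactly 2 libraries, which were not tested, numbered 2158 and had a median of 0.723 TPM. Some genes passed through 1 tissue alone, with 4426 at 1 TPM in the 3 leaf tip libraries and in no leaf library, and 1785 at 1 TPM in the 3 leaf libraries and in no leaf tip library. Such genes could be called in 1 direction only.

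The libraries of a tissue were close to each other and the tissues stood far apart. Across the tested genes, log2(TPM + 1) correlated with r = 0.9929 to 0.9943 between leaf tip libraries and with 0.9944 to 0.9948 between leaf libraries. Between a leaf tip and a leaf library r was 0.7055 to 0.7085. Genes are not independent replicates, and these values are a description.

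Expression was spread over more genes in leaf tip than in leaf. The 10 most abundant genes accounted for 4.34%, 4.36% and 4.37% of all TPM in the leaf tip libraries and 13.82%, 13.41% and 14.3% in the leaf libraries. The groups did not overlap (difference -9.49 percentage points; exact permutation test, two-sided, p = 0.1, the smallest that 3 against 3 libraries allow). It took 1591, 1594 and 1586 genes to hold 50% of the summed TPM of the leaf tip libraries, against 655, 680 and 628 genes in the leaf libraries. Leaf tip had more genes at 1 TPM or more, with 32429, 32261 and 32023, against 27588, 27490 and 27116 in leaf (exact permutation test, two-sided, p = 0.1). At 1000 TPM or more the order turned, with 75, 74 and 73 genes in leaf tip and 93, 92 and 91 in leaf. These counts were made on TPM as deposited only, where abundant transcripts lower all others. A line at 1 TPM is therefore not the same cut in both tissues, and part of the gap in counts may come from this.

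**Figure D1:**
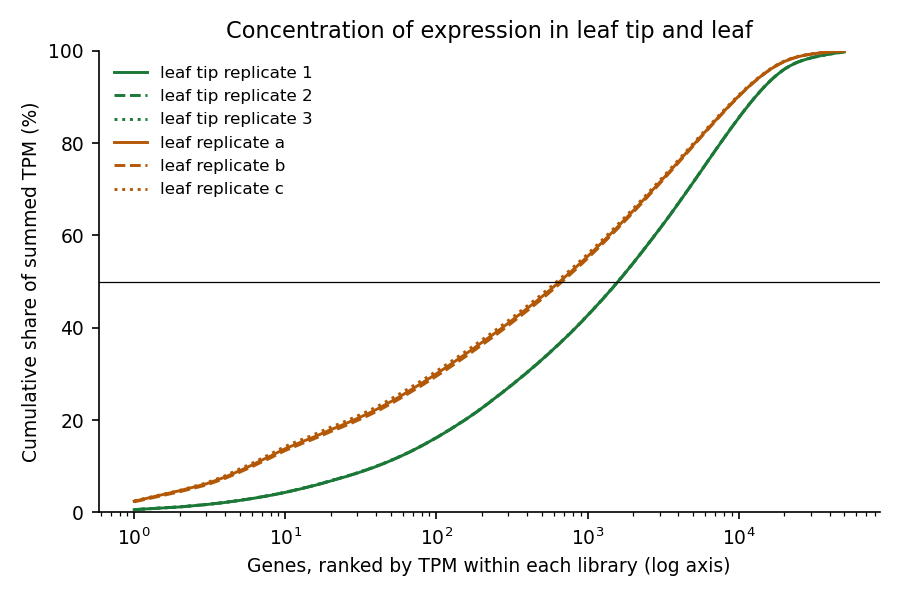
Cumulative share of summed TPM (%, vertical axis) held by genes ranked by TPM within each library (horizontal log axis), for the 3 leaf tip and 3 leaf libraries; the horizontal line marks 50%. The leaf tip curves lie below the leaf curves and cross 50% at 1586 to 1594 genes, while the leaf curves cross it at 628 to 680.

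The 10 most abundant genes were the same in all 3 libraries of a tissue, and 4 genes stood in both tissue lists. All 10 leaf genes fell in leaf tip (log2 difference -1.38 to -6.03). Their combined share was 2.82% in leaf tip against 13.8% in leaf. The 10 most abundant leaf tip genes moved in both directions, as 3 rose in leaf tip, 4 fell and 3 were not called under both scalings. These genes were picked for their level in 1 of the tissues compared, so the direction of the leaf list follows in part from the choice.

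Because abundant leaf genes take up so much of the total, each gene was tested on the TPM as deposited and again after median-ratio scaling, which sets the median gene equal between libraries. A gene was called when limma's test gave a Benjamini-Hochberg adjusted p under 0.05 and the log2 difference of log2(TPM + 1), leaf tip minus leaf, was at least 1 in size, a 2-fold change. As deposited, 9849 genes (30.5% of those tested) rose and 4401 (13.6%) fell in leaf tip. After median-ratio scaling 5408 (16.7%) rose and 6794 (21.0%) fell. The calls were nested, which follows from the scaling, since its factors lowered leaf tip against leaf for every gene. All 4401 genes that fell as deposited also fell after scaling, and all 5408 that rose after scaling also rose as deposited, while 0 genes were called in opposite directions. The set called under both scalings thus takes the stricter count in each direction and is no separate support for the calls. Under both scalings 9809 genes (30.4%) were called, with 5408 rising and 4401 falling in leaf tip, and these are described from here on as the higher and the lower genes.

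The remaining calls depended on the scaling. Another 4441 genes rose in leaf tip only as deposited, and 2393 fell only after median-ratio scaling. The median log2 difference over all tested genes was 0.51 as deposited and 0.02 after scaling, for factors that differed 1.51-fold between leaf tip and leaf libraries. Of the calls, 69.1% were higher in leaf tip as deposited and 44.3% after scaling. The sign of the difference changed between scalings for 5213 genes.

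The shift was smaller when the most abundant genes were taken out. Genes with a mean of 1000 TPM or more held 24.8% of leaf TPM against 10.8% of leaf tip TPM. Taking such genes out and rescaling therefore lowers the median by construction, and their part in the shift was not tested. Without the 10 genes of the highest mean TPM, and with the rest brought back to the same total, the median log2 difference was 0.383 and 63.3% of calls were higher in leaf tip. Without the top 100 genes the median was 0.3 and without the top 1000 it was 0.239, with 59.3% and 56.9% of calls higher. Median-ratio factors taken only from genes with a mean of at least 10 TPM left a median of 0.117 and 49.3% of calls higher. A positive median thus remained after the top 1000 genes were taken out.

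**Figure D2:**
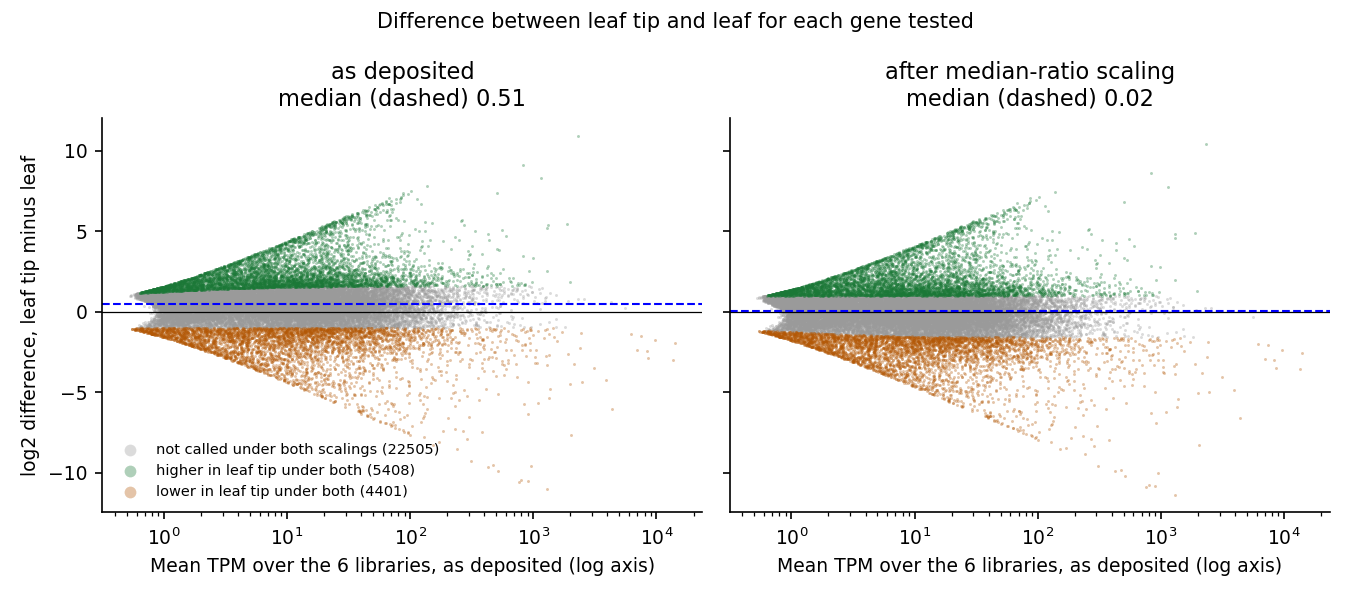
Log2 difference, leaf tip minus leaf (vertical axis), against mean TPM over the 6 libraries (horizontal log axis) for each of the 32314 genes tested, as deposited (left) and after median-ratio scaling (right). Points are genes, coloured by their call under both scalings; the dashed line is the median, 0.51 on the left and 0.02 on the right.

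Differences between the tissues were large compared with the spread of the libraries. Leaf tip and leaf libraries did not overlap for 28357 genes (87.8% of those tested, where 44.1% were called as deposited). By the adjusted p alone, with no minimum change, 28308 genes (87.6%) passed as deposited and 27249 (84.3%) after scaling. The 2-fold minimum, not the spread, therefore set most of the count. The 95% interval of the difference, not adjusted for the number of genes, lay within 2-fold for 14377 genes (44.5%) as deposited and for 16619 (51.4%) after scaling. Both directions held genes of very large change. A difference of at least 8-fold under both scalings was found for 813 higher and 705 lower genes, and one of at least 64-fold for 40 higher and 72 lower genes.

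The spread between libraries narrowed with abundance, so single abundant genes are the better measured. The median SD within tissues, on the log2 scale, was 0.148 for genes with a mean under 3 TPM over the 6 libraries, 0.0636 at 10 to 30 TPM and 0.0255 at 1000 TPM or more. The balance of directions also differed between abundance classes, though not in even steps. The pseudocount of 1 was added after scaling, so scaling moved genes under 3 TPM less than abundant ones. Part of the gap between classes after scaling follows from this. Below 3 TPM the median log2 difference was 0.54 as deposited and 0.20 after scaling, and 13.8% of 9360 genes were higher and 10.9% lower under both scalings. At 100 to 300 TPM the medians were 0.29 and -0.30, and 16.8% of 1116 genes were higher and 20.6% lower. At 300 to 1000 TPM the medians were back up at 0.38 and -0.21, and 21.3% of 343 genes were higher and 31.5% lower. Among the 68 genes at 1000 TPM or more the medians were -1.24 and -1.84, and 7 genes (10.3%) were higher and 38 (55.9%) lower. These 68 genes took 10.8% ± 0.018 of the TPM of the leaf tip libraries against 24.8% ± 0.52 of that of the leaf libraries (SD, n = 3 each). Genes enter the top class through either tissue, and leaf has the more concentrated distribution.

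**Figure D3:**
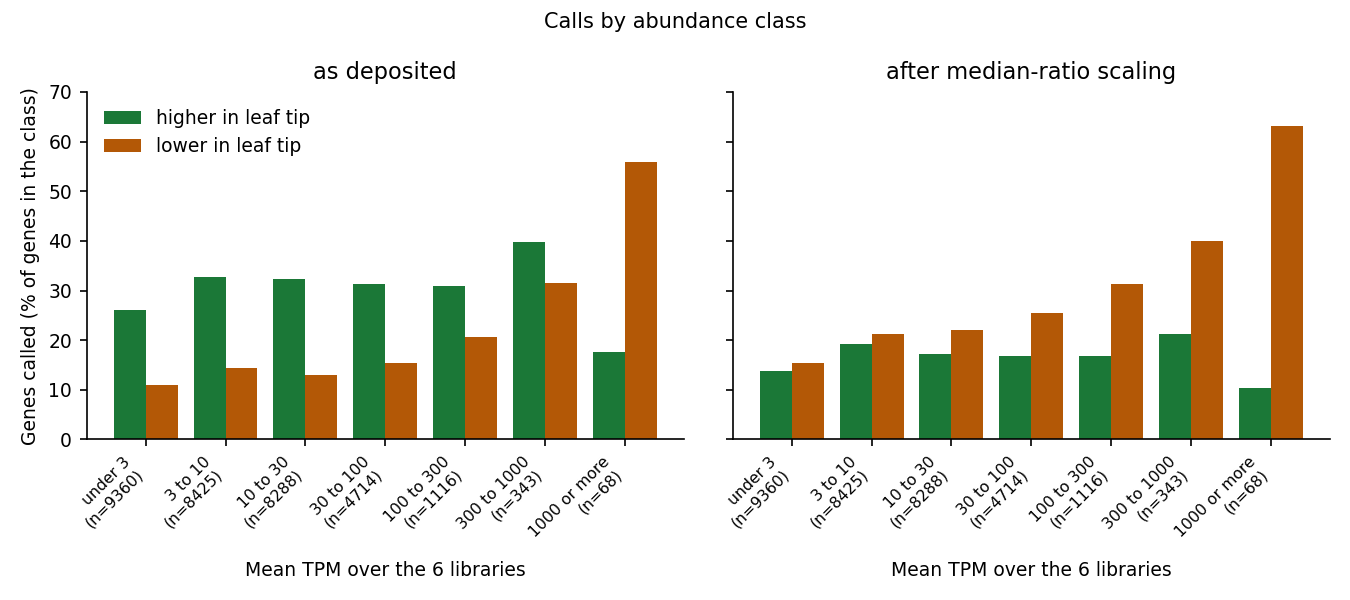
Genes called higher and lower in leaf tip (% of genes in each class, vertical axis) by mean TPM over the 6 libraries (horizontal axis, number of genes in brackets), as deposited (left) and after median-ratio scaling (right). As deposited, higher calls outnumber lower calls in every class below 1000 TPM; after scaling, lower calls outnumber higher calls in every class. At 1000 TPM or more lower calls reach 55.9% and 63.2%.

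The gene with the largest gain in TPM in leaf tip, LE_TRINITY_DN5604_c0_g1, was among the most abundant transcripts of leaf tip and near the 1 TPM threshold of the test in leaf. It had 4633.38, 4629.77 and 4641.63 TPM in the leaf tip libraries and 1.22, 1.88 and 1.13 TPM in the leaf libraries. It ranked 4 in each leaf tip library and no better than 23278 in leaf (log2 difference 10.92, SE 0.10, limma adjusted p = 2.4e-11; 10.44 after median-ratio scaling). Outside the leaf, shoot tip held 3486 ± 30.5 TPM, root tip 68.2 ± 2.19 and root 2.83 ± 1.8 (SD, n = 3 each). It was thus abundant in leaf tip and shoot tip and low in leaf and root without their tips.

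LA_TRINITY_DN4088_c0_g1 had the next largest gain. Its level was 3702.75, 3679.46 and 3697.38 TPM in leaf tip against 82.28, 84.38 and 80.49 TPM in leaf (log2 difference 5.47, SE 0.02, limma adjusted p = 1e-12; 4.87 after scaling). Lack of overlap between the 2 tissues was a condition for naming a gene. Leaf still held a clear level of the transcript. All 3 tips had it in abundance, shoot tip at 4353 ± 57.3 TPM and root tip at 2352 ± 15.6, whereas root had 2.93 ± 2.27 (SD, n = 3 each).

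The most abundant leaf gene, LA_TRINITY_DN22130_c0_g1, had 3006.44, 3064.86 and 3055.13 TPM in leaf tip against 24175.4, 22904.87 and 25129.27 TPM in leaf. It fell in leaf tip (log2 difference -2.98, SE 0.032, limma adjusted p = 4.7e-11; -3.58 with median-ratio scaling, -1.54 with quantile normalization), where it still ranked 11 among all genes in each library. Shoot tip held 546.9 ± 18.8 TPM, root tip 0.623 ± 0.298 and root 3.49 ± 1.49 (SD, n = 3 each). Its level therefore stepped down through leaf, leaf tip and shoot tip and was near 0 in the root system.

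SHA_TRINITY_DN2378_c0_g1 had 5794.28, 5878.08 and 5850.45 TPM in leaf tip against 22931.17, 21858.61 and 22615.66 TPM in leaf (log2 difference -1.94, SE 0.021, limma adjusted p = 5.1e-11; -2.54 after median-ratio scaling). Its rank was 2 in all 6 libraries. Quantile normalization gives genes of equal rank equal values, so under it the difference was 0 and the call was lost. The gene was also abundant elsewhere, shoot tip holding 1448 ± 7.92 TPM, root tip 2480 ± 21.4 and root 1267 ± 357 (SD, n = 3 each), where replicate 3 had 855.12 TPM against 1469.04 and 1476.37 in replicates 1 and 2.

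The 20 genes with the greatest TPM difference in each direction covered unequal ranges. The 20 higher genes had 949.2 to 4635 TPM in leaf tip (median 1546) and 1.41 to 845.2 TPM in leaf (median 75.8), and their log2 differences ran from 1.65 to 10.92. The 20 lower genes had 0.253 to 5841 TPM in leaf tip (median 518.1) and 2587 to 24070 TPM in leaf (median 6569), and their log2 differences ran from -1.38 to -11.02. As a group the 20 higher genes took 3.81% ± 0.01 of leaf tip TPM against 0.382% ± 0.0038 of leaf TPM (SD, n = 3 each). For the 20 lower genes these shares were 3.1% ± 0.026 against 17.6% ± 0.48 (SD, n = 3 each). All these genes were picked for their TPM difference, so the gap between leaf tip and leaf follows from the choice. Of the lower genes, 16 still had 100 TPM or more in leaf tip, whereas 9 of the higher genes reached 100 TPM in leaf.

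In tissues that played no part in their choice, all 20 higher genes had at least 100 TPM in shoot tip (median 1900 TPM) and 16 did in root tip (median 873.4 TPM). In root 7 of them reached 100 TPM and 10 were under 10 TPM. Of the 20 lower genes, shoot tip had 12 at 100 TPM or more, root tip had 13, and root had 12 with a median of 432.7 TPM over the 20.

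**Figure D4:**
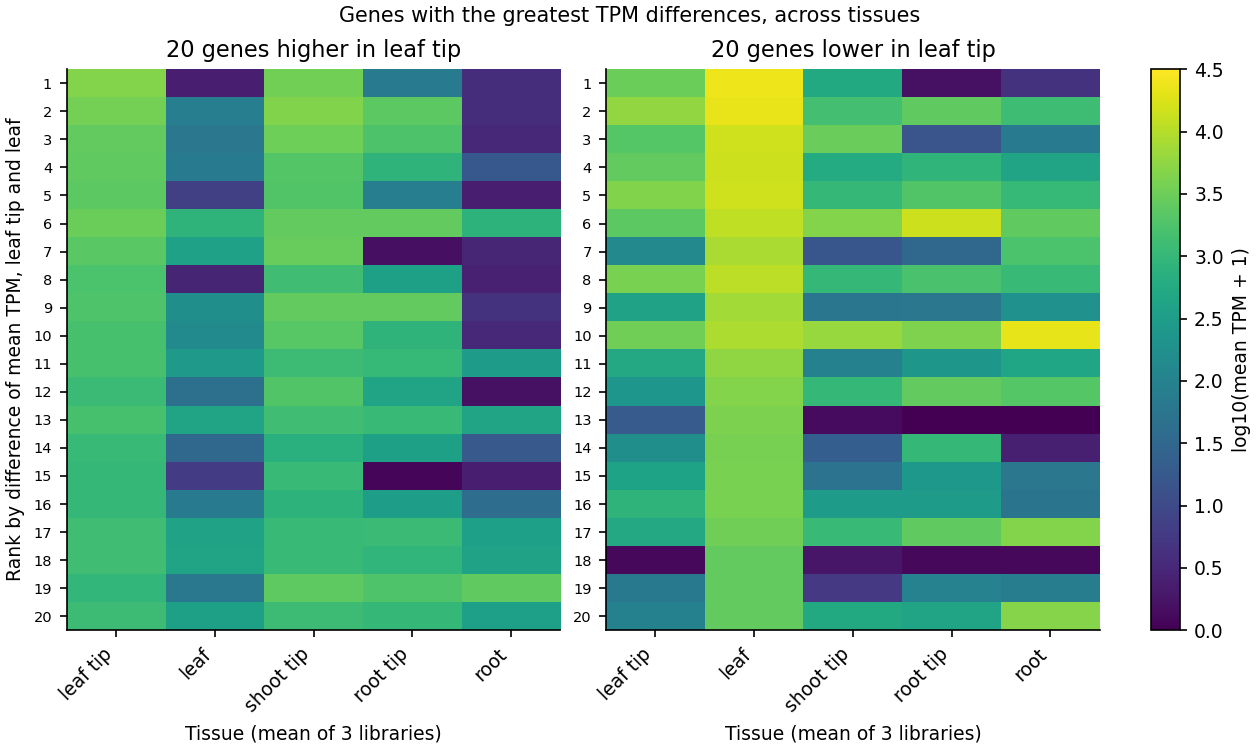
Mean TPM of 3 libraries in each tissue (colour, log10(mean TPM + 1)) for the 20 genes with the greatest difference of mean TPM that were higher (left) and lower (right) in leaf tip; rows are genes by rank and columns are tissues. On the left the shoot tip column is close in colour to the leaf tip column, with all 20 genes at 100 TPM or more; on the right the leaf column is the brightest for 16 of 20 genes.

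Shoot tip also expressed the higher genes well, and root did so for the lower genes. All levels given for shoot tip, root tip and root are TPM as deposited, and no scaling was applied across tissues. For the 5408 higher genes the median was 14.9 TPM in leaf tip against 1.44 TPM in leaf. Outside the comparison it was 14.2 TPM in shoot tip, 7.6 TPM in root tip and 1.69 TPM in root. For the 4401 lower genes it was 2.4 TPM in leaf tip against 16.2 TPM in leaf, then 4.47 TPM in shoot tip, 6.95 TPM in root tip and 12.6 TPM in root. Over all tested genes the leaf tip median was 8.48 TPM against 5.87 TPM for leaf, and shoot tip, root tip and root had 8.86, 8.06 and 6.04 TPM. So the higher genes stood above the tested genes in shoot tip and below them in root, and the lower genes did the reverse. The gap between the leaf tip and leaf medians of each set follows from the choice of its genes.

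Both sets were chosen by their leaf tip and leaf values, so the gaps between those tissues follow from the choice. Measured by its share of each library, the higher set took 26.6% ± 0.0022 of leaf tip TPM against 4.46% ± 0.042 of leaf TPM (SD, n = 3 each). It took 26.7% ± 0.099 of shoot tip TPM, 16.8% ± 0.024 of root tip TPM and 7.89% ± 0.1 of root TPM. The lower set took 10.2% ± 0.029 of leaf tip TPM against 48.3% ± 0.45 of leaf TPM (SD, n = 3 each). Its share was 9.82% ± 0.025 for shoot tip, 15.6% ± 0.066 for root tip and 31.6% ± 0.17 for root. Root replicate 3 stood apart from the others over the genes tested here (r = 0.9785 and 0.9786 with replicates 1 and 2, which had r = 0.9942 with each other). Without it the root medians were 1.71 TPM for the higher and 12.4 TPM for the lower genes, and the root shares 7.83% and 31.5%.

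Few of the genes belonged to 1 tissue. A mean of at least 1 TPM in all 5 tissues was reached by 2581 higher genes (47.7%) and 2469 lower genes (56.1%), against 67.9% of all tested genes. However, 2183 higher genes were under 1 TPM in every leaf library, and 1401 lower genes were so in every leaf tip library. Such genes cannot reach that mean in all 5 tissues, so the lower shares of the called genes follow in part from the choice. A smaller group of 121 higher genes (2.24%) were at 1 TPM in leaf tip and in no other tissue, and 355 lower genes (8.07%) were so in leaf. Over all tested genes these shares were 1.86% (600 genes) for leaf tip alone and 1.59% (515 genes) for leaf alone. A gene counted in leaf tip or leaf alone is by definition under 1 TPM in the other leaf tissue. The comparison of these shares thus also follows in part from the choice. The highest of the 5 tissue means was in leaf tip for 3428 higher genes (63.4%), in shoot tip for 1457 (26.9%), in root tip for 403 (7.45%) and in root for 120 (2.22%). For the lower genes it was in leaf for 2417 (54.9%) and in root for 1586 (36.0%), with 339 (7.7%) in root tip and 59 (1.34%) in shoot tip. Over all tested genes it was in leaf tip for 32.6%, in leaf for 14.6%, in shoot tip for 17.8%, in root tip for 14.6% and in root for 20.4%. By its call a higher gene cannot be highest in leaf nor a lower gene in leaf tip, so the shares of both leaf tissues follow in part from the choice. The counts across the 5 tissues were made on TPM as deposited only, where abundant transcripts lower all others. They were not repeated after scaling.

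Expression that was present in 1 tissue and near absent in the other was found in both directions. At least 10 TPM in all leaf tip libraries and under 1 TPM in all leaf libraries was found for 616 genes, of 14394 at that level in leaf tip. The converse, at least 10 TPM in all leaf libraries and under 1 TPM in all leaf tip libraries, was found for 317 of 11943 genes. At 100 TPM these counts were 42 of 1658 genes in leaf tip and 32 of 1392 in leaf. All were made on TPM as deposited only and were not repeated after scaling. Abundant transcripts lower all others there, so a line at 1, 10 or 100 TPM is not the same cut in both tissues. Genes listed at 0 in the other tissue were rarer, with 21 of the 616 and 25 of the 317. Since a listed 0 may also be an estimate that failed, no fold change is given for these genes. Among the 23114 genes at 1 TPM or more in all 6 libraries, 12.4% were higher and 11.6% lower, against 16.7% and 13.6% of all tested genes. This condition leaves out every gene that passed through 1 tissue alone, so the smaller shares follow in part from it.

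The share of genes called differed by the prefix of the identifier. Prefixes match the tissue codes of the table's columns, LA for leaf tip, LE for leaf, SHA for shoot tip, RT for root tip and RO for root. The share of listed genes that passed the filter and were tested was 43.2% for LA and 52.6% for LE. It was 36.9% for SHA, 51.6% for RT and 20.3% for RO, so the prefixes are not equal samples of genes. In leaf tip 24.8% of the 8830 tested LA genes rose and 5.13% fell, and 4.95% of the 5094 LE genes rose and 31.0% fell. The SHA genes resembled the LA genes, with 23.3% higher and 7.22% lower of 7005. The RO genes lay on the side of the LE genes, with 7.64% higher and 19.8% lower of 5867. The RT genes, whose code belongs to neither leaf tissue, had 16.1% higher and 12.8% lower of 5518, near the 16.7% and 13.6% of all tested genes. The part of the prefixes in the counts was not tested.

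**Figure D5:**
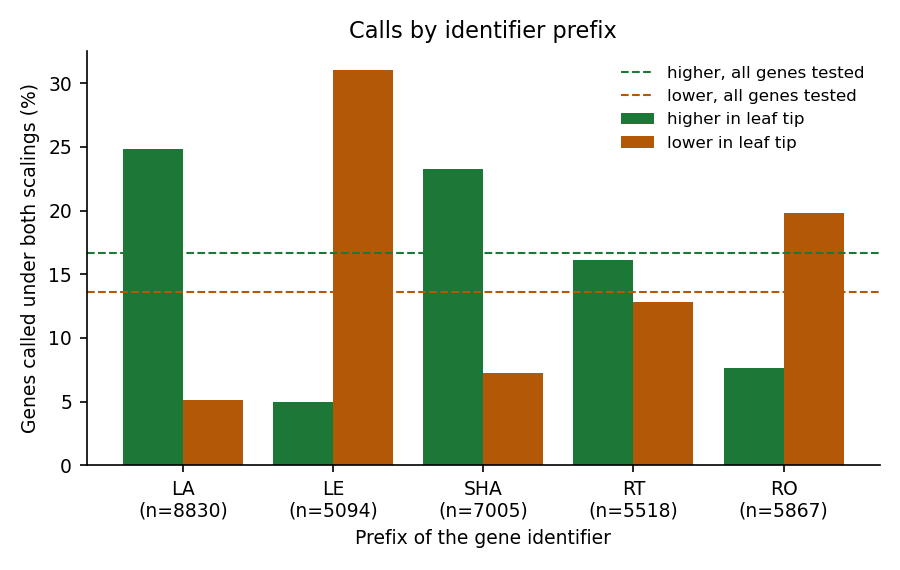
Genes called under both scalings (% of tested genes, vertical axis) by identifier prefix (horizontal axis, number tested in brackets), higher and lower in leaf tip; dashed lines give the shares over all genes tested, 16.7% and 13.6%. Among LA and SHA genes more were higher than lower, among LE and RO genes more were lower than higher, and RT genes lie close to both lines.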

How the data were processed

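Per the submitters' processing notes, the tools were RSEM 1.3.2, Bowtie2 2.3.4.3 and Trim Galore 0.5.0; settings and the assembly are not given in the sources used here. The authors deposited 1 table of TPM per gene with 2 decimals, 1 column per library. Columns were joined to libraries through sample descriptions.

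Genes with at least 1 TPM in 3 of the 6 libraries were fitted in R 4.3.3 by limma 3.58.1, on log2(TPM + 1) (1 mean per tissue, moderated variance with an intensity trend), and p-values were Benjamini-Hochberg adjusted over all 32314 genes. The pseudocount of 1 understates changes of low genes. Median-ratio factors came from the 30821 tested genes above 0 in all 6 libraries. Errors after ± are SD. Exact tests used SciPy 1.17.1, and figures matplotlib 3.10.9. The fit was tested on simulated data.

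Named genes are the 2 per direction with the largest difference of mean TPM among those called under both scalings without overlap; the identifiers carry no names, so no more are printed. The comparison, named genes and alternatives were chosen with earlier results of these data known. Depth is unknown, so no counting interval is given.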

Additional observations from a re-analysis of the deposited data

How the results depend on the processing

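The counts set against the alternatives are 9849 higher and 4401 lower genes as deposited, and 5408 and 4401 under both scalings. Median-ratio scaling gave 5408 higher and 6794 lower, and quantile normalization 5943 higher (6287 lower). A pseudocount of 5 gave 5147 and 2592 as deposited and 2691 and 2592 under both scalings. A mean of at least 5 TPM, which leaves fewer genes to test, gave 6373 and 2871, with 2871 lower under both scalings. A minimum change of 4-fold gave 2752 and 1709, and 1778 and 1709 under both scalings. The other alternatives kept the counts of calls within 1.5 times. They include a pseudocount of 0.1, no filter, all 15 libraries in the fit, no intensity trend, robust moderation, and rescaling without the top 10, 100 or 1000 genes, of which 10 and 1000 were added after seeing the data. Leaving out each library in turn gave 9751 to 9976 genes higher and 4363 to 4416 lower, and under both scalings 5362 to 5483 and 4363 to 4416. The 2 measures of concentration kept their direction at these settings, but their size depends on where the line is drawn, and at 1000 TPM leaf tip had fewer genes than leaf. On TPM as deposited, leaf tip had 4840 more genes at 1 TPM (4699 to 4947 with a library left out), 8841 at 0.1 TPM, 2518 at 10 TPM and 272.3 at 100 TPM. These counts were not repeated after scaling. The share of the top 10 genes differed by -9.49 percentage points (-9.70 to -9.26 with a library left out), that of the top gene by -1.79, of the top 100 by -13.85 and of the top 1000 by -12.79. Of 48 alternative values for the 4 named genes, 47 kept direction and call; SHA_TRINITY_DN2378_c0_g1 lost its call under quantile normalization, with a difference of 0. Columns of both tissues end in 1, 2 or 3, but no label ties a number to a plant or batch shared by the tissues, and the leaf samples are described by codes that differ from the leaf column names. Libraries of equal number did not deviate together (correlations 0.0145, -0.014 and -0.00461). A replicate block by column number, added after seeing the data, gave 9849 higher and 4402 lower genes, and 5409 and 4402 under both scalings. Unknown depth limits what can be said of genes near 1 TPM.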

Other observations

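Identifiers that share an assembly component, the part of the name before the gene number, come from reads that were assembled together and can be close copies or pieces of 1 gene. Among the tested genes 2644 (8.18%) lay in 1271 components with 2 or more tested genes. In 25 of these components (1.97%) a gene was higher in leaf tip and another lower. Of 1174 components with exactly 2 tested genes, both genes were called in 167, with 73 pairs both higher in leaf tip, 73 both lower and 21 (12.6%) in opposite directions. In 409 pairs 1 gene was called and in 598 neither was. Over all tested genes 30.4% were called under both scalings, and 55.1% of those calls were higher in leaf tip. Reads shared between such copies make their single values uncertain, and which pairs are copies was not tested.

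Among genes not tested for the comparison, 4318 had 1 TPM in exactly 1 of the 6 libraries, and 15867 were listed at 0 in all 6. The highest single value outside the tested genes was 93.29 TPM.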
